A study of Homo sapiens with 3 samples.

Results

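The circular RNA (circRNA) profile of J82 was set against that of T24, with 1 library for each of these human bladder cancer cell lines. The comparison took every listed circRNA with at least 10 reads in either library, which gave 3679 of the 10562 circRNAs in the table. They came from 2116 annotated host genes, the genes whose exons form the circle, and 60 had no annotated host gene. SV-HUC-1, an immortalized line from the urothelium (the lining of the bladder), was the only other library of the study and is given as a point of reference. All 3 lines were untreated as far as the labels say, and no genotype, passage or culture condition is given. Each line is represented by 1 preparation, so a difference between J82 and T24 is a difference between these 2 libraries and has no replicate check.

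A circRNA forms by back-splicing, in which a splice donor is joined to an acceptor that lies upstream of it in the same transcript. The closed ring has no free end, which makes it resistant to RNase R, an exonuclease that was used here to digest linear RNA before sequencing. The level of a circRNA depends on how much its host gene is transcribed, on how often its exons are back-spliced and on how long the ring lasts, and these cannot be told apart in such libraries. Nor can fewer cells with a transcript be told apart from less of it in each cell. A host gene with no circular reads may still have linear mRNA, which was not measured.

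The study's title names a circRNA of RIMS1 as a sponge of miR-433-3p, and the circRNA CDR1as is known for its many sites for miR-7. Both circRNAs differ between the lines below, so the mature microRNAs are shown as RefSeq gives them (GRCh38.p14), with the seed, bases 2 to 8 from the 5′ end, in capitals. The gene of hsa-miR-433-3p lies on chromosome 14, where the mature form spans 100881949 to 100881970 on the plus strand.
hsa-miR-433-3p: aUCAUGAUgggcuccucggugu
hsa-miR-7-5p: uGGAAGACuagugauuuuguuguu
The seeds differ, and microRNA levels were not measured in these libraries.

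The host gene WSCD1 had circular reads in T24 and none in J82. The RefSeq promoter window of the gene is shown, from 250 bases before to 50 after the annotated start, 5′ to 3′ on the gene's strand, with each CG, the dinucleotide at which human DNA is methylated, in capitals. The window is chr17:6068866-6069165 (plus strand) on GRCh38.p14, which is not the build of the circRNA positions. Which start the transcripts of these lines use was not measured.
WSCD1: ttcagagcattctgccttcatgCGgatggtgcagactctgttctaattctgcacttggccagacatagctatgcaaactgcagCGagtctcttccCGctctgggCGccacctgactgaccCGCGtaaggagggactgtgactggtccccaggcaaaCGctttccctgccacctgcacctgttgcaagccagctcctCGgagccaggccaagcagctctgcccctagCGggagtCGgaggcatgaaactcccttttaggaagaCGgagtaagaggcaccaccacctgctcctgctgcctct
The WSCD1 window held 11 CG and had a GC content of 58.7%. Among the 2026 host genes of the comparison with a window in the table, the median was 29 CG, with quartiles of 20 and 37. Leaving out Y-linked genes, 15 of the 21 host genes at 0 reads in J82, the class of WSCD1, could be matched. Their median was 29 CG, with quartiles of 16.5 and 33.5, so WSCD1 lay below the lower quartile of its own class. In the opposite class, the 56 of 68 host genes at 0 reads in T24 that could be matched had a median of 21 CG, with quartiles of 9 and 34. A CG lies in 95.9% of the table's 27195 windows, so its presence marks nothing particular. DNA methylation was not measured.

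The circRNAs of the comparison held most of the listed circRNA reads of both libraries. J82 had 126041 circRNA reads, 80.0% of them in these circRNAs, and T24 had 108574, 79.2% of them. Values are in CPM, read counts that the authors scaled by library before they deposited them, in which 1 read was worth 0.0211 CPM in J82, 0.0234 CPM in T24 and 0.0201 CPM in SV-HUC-1. At least 10 reads were reached in both lines by 1761 circRNAs, in J82 alone by 1130 and in T24 alone by 788.

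Taking a difference of at least 2-fold as the call, 925 circRNAs (25.1%) were higher in J82 and 718 (19.5%) were lower, while the median log2 difference, J82 minus T24, was 0.13 with quartiles of -0.77 and 1.005. For 707 (19.2%) and 571 (15.5%) the 95% counting interval also lay wholly above or below 1. Calls were commonest where reads were fewest. Of the circRNAs with 10 to 19 reads in their higher line, 49.3% passed 2-fold, but only 32.0% had an interval on 1 side of 1. Of the 193 with 100 reads or more, 34.7% passed 2-fold and 76.7% had such an interval. The interval narrows as reads rise and covers counting error only. The 76.7% is therefore a statement about these 2 libraries, and the spread between preparations of a line is unknown. J82 had 0 reads of 55 circRNAs (1.49%) and T24 had 0 reads of 147 (4%). The 362 circRNAs just inside the 10-read limit had a median log2 difference of 0.16, and the 480 just outside it, at 9 reads, had 0.19.

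**Figure D1:**
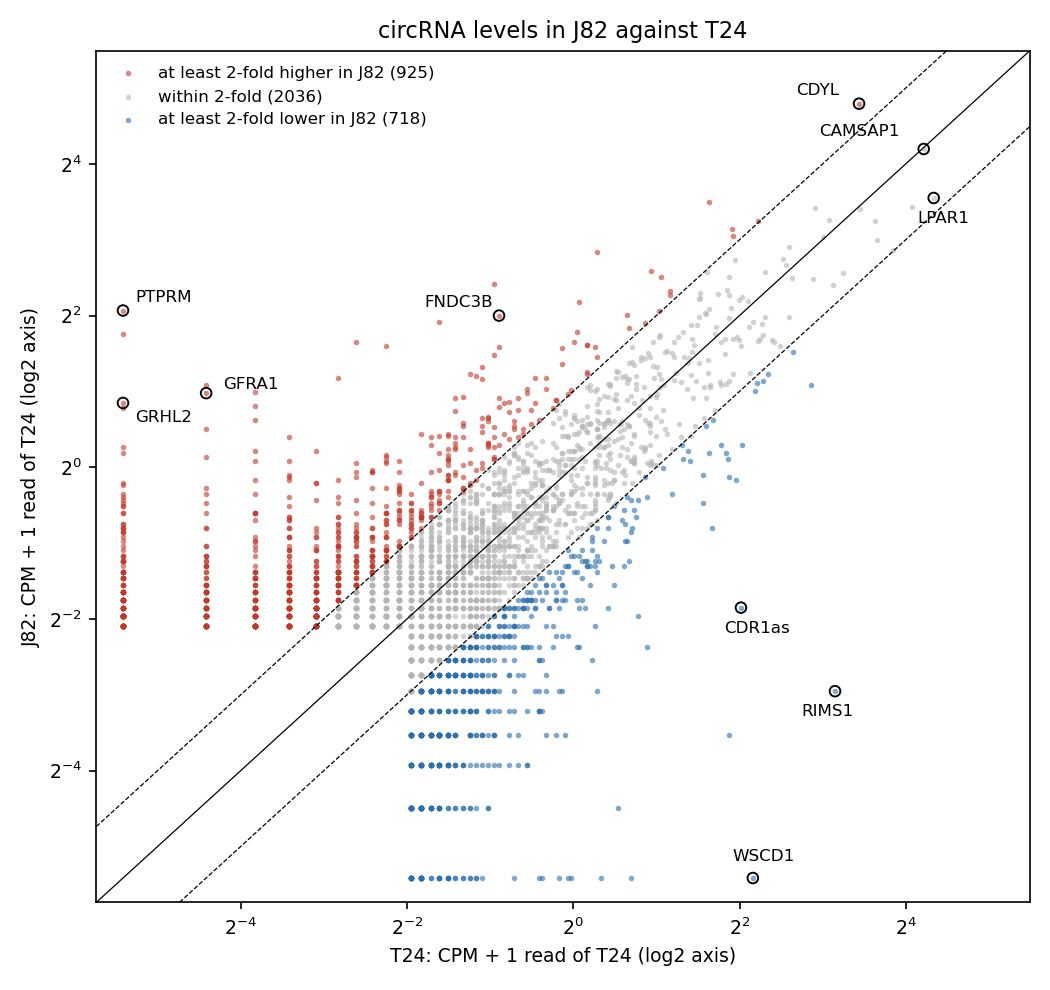
CPM of each of the 3679 circRNAs in J82 (vertical axis) against T24 (horizontal axis), both on a log2 axis after adding 1 read of T24, with 1 point per circRNA and dashed lines at a 2-fold difference. The 925 red points were higher in J82 and the 718 blue points lower; the circled circRNAs of PTPRM and GRHL2 have 0 reads in T24, that of WSCD1 has 0 in J82, and that of CAMSAP1 lies on the line of equal levels.

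Summed over all listed circRNAs of each host gene, 521 of 2513 host genes (20.7%) were called higher in J82 and 418 (16.6%) lower. T24 had 0 reads of 71 host genes (2.83%) and J82 had 0 reads of 21 (0.836%). An exact binomial test of the reads, which compares these libraries and not the lines, called 499 host genes (19.9%) higher and 445 (17.7%) lower at a Benjamini-Hochberg adjusted p under 0.05. At the head of the higher ones stood INPP4B, a phosphoinositide phosphatase, PTPRM, an adhesion receptor, and GRHL2, an epithelial transcription factor.

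INPP4B, which removes a phosphate from the lipid second messenger made by PI3-kinase, had 261 reads (5.52 CPM) in J82, 0 in T24 and 18 in SV-HUC-1. All 17 of its listed circRNAs were detected in J82, and it was at least 78.6-fold higher there, against a floor of 3 reads in T24. Its most abundant circRNA, hsa_circ_0071037 (chromosome 4, 143324090 to 143383879, minus strand), had 56 reads in J82, 0 in T24 and 1 in SV-HUC-1. Another, hsa_circ_0125415, had 40 in J82 and 0 in both T24 and SV-HUC-1. The lack of reads in T24 thus extended over every listed circRNA of INPP4B.

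PTPRM, a receptor tyrosine phosphatase that binds its own kind on neighbouring cells, had the most reads of these host genes. It gave 581 reads (12.3 CPM) in J82, 2 (0.0468 CPM) in T24 and 48 in SV-HUC-1, a 262-fold difference between J82 and T24 (95% counting interval 72.3 to 2172). All 11 of its circRNAs with 10 reads or more were at least 2-fold higher in J82. The most abundant, hsa_circ_0007144 (chromosome 18, 8076452 to 8143777, plus strand), had 197 reads in J82, 0 in T24 and 7 in SV-HUC-1, at least 59.3-fold higher in J82 than in T24. A shorter ring with the same start, hsa_circ_0006114 (to 8088849), had 159 reads in J82, 0 in T24 and 14 in SV-HUC-1. A further PTPRM circRNA, hsa_circ_0004188, had 36, 0 and 1 read in J82, T24 and SV-HUC-1. Its close relative PTPRK, also a homophilic receptor phosphatase, had 302 reads in J82, 11 in T24 and 135 in SV-HUC-1, 24.8-fold higher in J82 than in T24 (13.7 to 50.2). All 9 PTPRK circRNAs in the comparison were higher, among them hsa_circ_0003105 (chromosome 6, 128540066 to 128563747) with 39 reads in J82, 0 in T24 and 10 in SV-HUC-1, and hsa_circ_0130639 with 35 in J82, 0 in T24 and 4 in SV-HUC-1. SV-HUC-1 thus held an intermediate number of PTPRK circular reads.

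GRHL2, a transcription factor that maintains epithelial identity, had 182 reads (3.85 CPM) in J82, 0 in T24 and 371 (7.45 CPM) in SV-HUC-1, at least 54.8-fold higher in J82 than in T24. Its hsa_circ_0085173 had 84 reads in J82, 0 in T24 and 292 in SV-HUC-1, while hsa_circ_0085170 had 53 in J82, 0 in T24 and 25 in SV-HUC-1. For GRHL2 it was T24 that stood apart from the urothelial line. PLEKHA7, a protein of the epithelial adherens junction, went the same way with 43 reads in J82, 0 in T24 and 19 in SV-HUC-1. SEMA5A, a guidance molecule of the semaphorin family, had 108 reads in J82, 0 in T24 and 44 in SV-HUC-1, at least 32.5-fold higher in J82 than in T24.

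Of the remaining host genes at the head of the list, MID1, a microtubule-associated ubiquitin ligase on the X chromosome, had 241 reads in J82, 6 in T24 and 230 in SV-HUC-1, 36.3-fold higher in J82 than in T24 (16.4 to 99.8). Its hsa_circ_0007718 (chromosome X, 10491131 to 10535643, minus strand) had 80 reads in J82, 0 in T24 and 39 in SV-HUC-1, whereas hsa_circ_0007933 had 148 in J82 and still 6 in T24. COL5A1, which encodes a fibrillar collagen chain, had 51 reads in J82, 0 in T24 and 190 in SV-HUC-1. Most of its J82 reads, 34, came from hsa_circ_0007482, which also had 31 in SV-HUC-1. NPAS3, a transcription factor of neural development, had 50 reads in J82 and 0 in both T24 and SV-HUC-1. VGLL3, a cofactor of TEAD transcription factors, had 38, 0 and 24 reads in J82, T24 and SV-HUC-1, and the thyroid hormone receptor gene THRB had 30, 0 and 16. For NPAS3 alone among these, the J82 signal had no counterpart in either of the other libraries. Among single circRNAs, LRP11, a member of the lipoprotein receptor family, gave hsa_circ_0007771 (chromosome 6, 150147399 to 150174296, minus strand) with 99 reads in J82, 1 in T24 and 75 in SV-HUC-1. GFRA1, which binds the neurotrophic factor GDNF, gave hsa_circ_0005239 (chromosome 10, 117849251 to 117856275, minus strand) with 92 reads in J82, 1 in T24 and 0 in SV-HUC-1. The ratios, 89.4 (15.7 to 3567) for LRP11 and 83.1 (14.5 to 3318) for GFRA1, have wide intervals because they rest on 1 read in T24.

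In the other direction, WSCD1, a membrane protein with a WSC domain, had 0 reads in J82, 227 (5.31 CPM) in T24 and 10 in SV-HUC-1, at least 83.8-fold lower in J82. Most of this came from hsa_circ_0107325 (chromosome 17, 5983690 to 5998543, plus strand), with 0 reads in J82, 190 in T24 and 8 in SV-HUC-1, and the rest from hsa_circ_0107332, with 0, 37 and 2. DOCK4, an exchange factor that activates the small GTPases Rac and Rap, had 1 read in J82, 158 in T24 and 16 in SV-HUC-1, 175-fold lower in J82 (30.9 to 6952). All 9 of its listed circRNAs were detected in T24 and 1 in J82, so the whole gene differed, as for INPP4B in the opposite direction. Its hsa_circ_0005937 (chromosome 7, 111575594 to 111585853, minus strand) had 1 read in J82, 61 in T24 and 11 in SV-HUC-1, and hsa_circ_0133067 had 0, 25 and 1.

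RIMS1, a scaffold of the presynaptic active zone in neurons and the gene of the study's title, had 5 reads in J82, 432 (10.1 CPM) in T24 and 0 in SV-HUC-1, 95.6-fold lower in J82 (40.7 to 296). Its main circRNA, hsa_circ_0132246 (chromosome 6, 73005639 to 73043538, plus strand), held all 5 of the J82 reads and 378 of those in T24. Each of the other 7 listed RIMS1 circRNAs had 0 reads in J82 and 5 to 11 in T24. The 2 bladder cancer lines were thus far apart in this circRNA, and its low count in J82 was nearer to the 0 of SV-HUC-1. CCAR1, a transcriptional coactivator whose expression the title ties to the RIMS1 circRNA, had 29 circular reads in J82, 52 in T24 and 39 in SV-HUC-1, which is 1.99-fold lower in J82 (1.24 to 3.24) and within 2-fold. Circular reads do not measure CCAR1 mRNA.

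Further host genes with at least 2 circRNAs in the comparison were lower by smaller amounts. DCBLD2, a neuropilin-like receptor, had 39 reads in J82, 224 in T24 and 53 in SV-HUC-1, 6.36-fold lower in J82 (4.51 to 9.18). NF2, the merlin tumour suppressor, had 12 reads in J82, 72 in T24 and 53 in SV-HUC-1, 6.64-fold lower in J82 (3.58 to 13.4). SPRED1, an inhibitor of RAS to MAPK signalling, had 3 reads in J82, 27 in T24 and 1 in SV-HUC-1. For DCBLD2 and SPRED1 it was T24 that stood above SV-HUC-1, and for NF2 it was J82 that stood below it. DENND3, which activates a Rab GTPase, had 10 reads in J82, 97 in T24 and 27 in SV-HUC-1, 10.7-fold lower in J82 (5.596 to 23.1), with its hsa_circ_0135939 at 0, 31 and 4. TBC1D31, a centrosomal protein, had 9 reads in J82, 57 in T24 and 52 in SV-HUC-1, and the doublecortin family gene DCDC2 had 0, 27 and 1. CNTNAP3 had 6, 63 and 30 reads, but it has near-identical copies in the genome, so where its reads came from is uncertain.

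The lowest single circRNAs included an RNA of PARD3, a polarity scaffold, that has no circBase ID (chromosome 10, 34661425 to 34667034, minus strand) and had 0 reads in J82, 68 in T24 and 0 in SV-HUC-1. KIAA1549L gave hsa_circ_0021609 (chromosome 11, 33572585 to 33573787, plus strand) with 3 reads in J82, 156 in T24 and 26 in SV-HUC-1, 57.6-fold lower in J82 (19.3 to 282). ZFPM2, a cofactor of GATA factors, gave hsa_circ_0003380 with 0 reads in J82, 53 in T24 and 2 in SV-HUC-1. The noncoding LOC284757 gave hsa_circ_0001174 with 0, 32 and 0 in J82, T24 and SV-HUC-1. A pair from the hedgehog pathway was abundant in SV-HUC-1 as well. The circRNA hsa_circ_0001742 of SMO, the pathway's signal transducer (chromosome 7, 128845043 to 128846428, plus strand), had 0 reads in J82, 41 in T24 and 80 in SV-HUC-1, and hsa_circ_0004228 of EVC2, its partner at the cilium (chromosome 4, 5664833 to 5667376, minus strand), had 0, 40 and 77. T24 and SV-HUC-1 both held these SMO and EVC2 circRNAs and J82 had none.

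**Figure D2:**
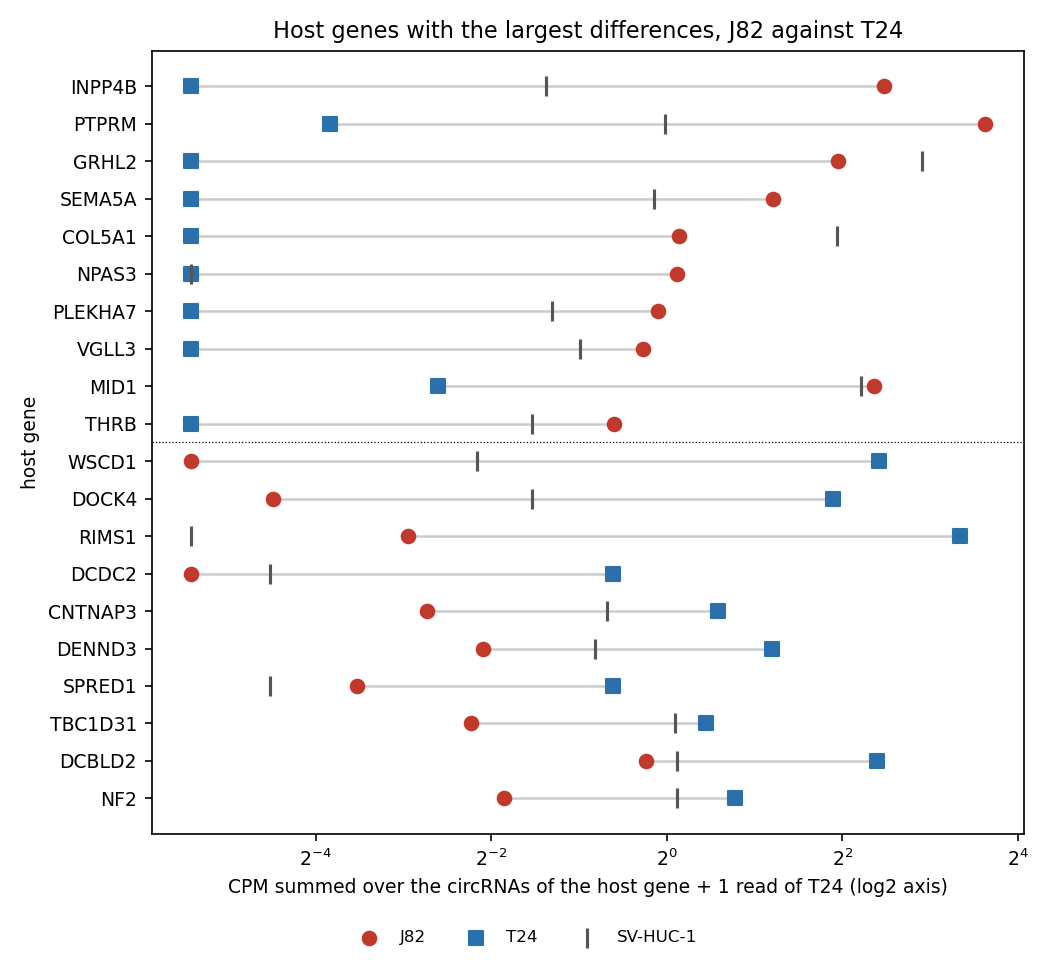
Summed CPM of the 10 host genes highest (above the dotted line) and the 10 lowest in J82 relative to T24, on a log2 axis after adding 1 read of T24, with a red circle for J82, a blue square for T24 and a grey tick for SV-HUC-1. INPP4B, GRHL2 and SEMA5A have 0 reads in T24 and WSCD1 and DCDC2 have 0 in J82, which places them at the left edge, and the SV-HUC-1 tick lies outside the span of J82 and T24 for GRHL2, COL5A1, RIMS1 and SPRED1.

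Circles of 1 host gene shared a call in some host genes and not in others. Of 814 host genes with at least 2 circRNAs in the comparison, 83 had all of them higher in J82, 54 had all lower, 230 had all within 2-fold and 52 had some in each direction. In the rest, some were past 2-fold in 1 direction and others within 2-fold. Of the 340 with at least 3, 32 had all higher, 11 all lower, 66 all within 2-fold and 37 some in each direction. Over all 3679 circRNAs, 25.1% were higher and 19.5% lower, and whether calls were shared more than these shares would give was not tested. Among the 73 with at least 5, all were higher for EXOC6B (5 circRNAs), FNDC3B (8), INPP4B (11), PTPRK (9), PTPRM (11) and SEMA5A (5), and all were lower for DOCK4 (5). Of these 73, 7 had all within 2-fold and 12 had some in each direction. EXOC6B is a subunit of the exocyst, which tethers secretory vesicles, and FNDC3B is a fibronectin domain protein of the endoplasmic reticulum.

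The most abundant circRNAs differed less than those at the extremes. The circRNA of CDYL, a chromodomain corepressor, hsa_circ_0008285, led in J82 at 27.7 CPM, against 10.8 CPM in T24 and 28.7 CPM in SV-HUC-1, 2.56-fold higher in J82 than in T24 (2.30 to 2.86). That of LPAR1, a receptor for lysophosphatidic acid, hsa_circ_0087960, led in T24, with 11.7 CPM in J82, 20.2 CPM in T24 and 4.17 CPM in SV-HUC-1. The LPAR1 ratio was 1.73-fold lower in J82 (1.55 to 1.92), within 2-fold but with an interval that leaves out 1. RHOBTB3, an atypical small GTPase, gave hsa_circ_0007444 at 11.3 CPM in J82, 3.09 CPM in T24 and 3.99 CPM in SV-HUC-1, 3.66-fold higher in J82 (3.02 to 4.46). CAMSAP1, which binds microtubule minus ends, gave hsa_circ_0001900 at 18.3 CPM in J82, 18.6 in T24 and 16.1 in SV-HUC-1, with a J82 to T24 ratio of 0.986 (0.895 to 1.09). HIPK3, a homeodomain-interacting kinase gene whose circRNA is among the best studied, stood at 10.8 CPM in J82 and 16.8 CPM in T24, PVT1, a noncoding gene next to MYC, at 7.25 and 14.3 CPM, and DLG1, a polarity scaffold, at 7.95 and 12.6 CPM. HIPK3 was 1.55-fold (1.38 to 1.74), PVT1 1.98-fold (1.73 to 2.26) and DLG1 1.58-fold (1.38 to 1.81) lower in J82. The 10 most abundant circRNAs of each library held 4.86% of the listed circRNA reads in J82 and 5.30% in T24, so neither profile was dominated by a few rings.

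Of 23 circRNAs known by a circBase ID from the literature, 19 reached 10 reads in either line, and 5 were higher, 2 lower and 12 within 2-fold, with a median log2 difference of 0.22. Besides CDYL and RHOBTB3, the higher ones were those of FNDC3B with 188 reads in J82 and 22 in T24 (7.72-fold, 4.95 to 12.6), of the chromatin remodeller SMARCA5 with 88 and 22 (3.61-fold, 2.24 to 6.06), and of CCDC66 with 33 and 13 (2.29-fold, 1.18 to 4.75). Besides RIMS1, the lower one was CDR1as, hsa_circ_0001946 (chromosome X, 139865339 to 139866824), with 12 reads in J82, 172 in T24 and 1 in SV-HUC-1. The CDR1as ratio of J82 to T24 was 0.0630 (0.0319 to 0.113). The circRNAs of RIMS1 and of CDR1as thus shared an order, highest in T24, low in J82 and at 0 or 1 read in SV-HUC-1. Those of ITCH (1 read in J82 and 2 in T24), MTO1 (7 and 8), TCF25 (9 and 4) and SLC8A1 (8 and 2) were too rare to compare.

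Host genes were next grouped by function, and each group's count is read against the 20.7% of all host genes that were higher and the 16.6% that were lower. The groups' names describe the proteins, which were not measured. A host gene enters only with 10 or more reads in either line, so one that is rare in both lines is not counted, and one near 0 in a line had to differ to be counted. The groups are therefore described, not tested.

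Epithelial and urothelial genes had the largest median difference of the 19 groups. Of the 56 genes, 9 were measured, 7 were higher in J82 and none was lower, with a median log2 difference of 4.11, or 2.44 when genes at 0 in T24 were set at their floor. Besides GRHL2 and PLEKHA7, ESRP1, an epithelial splicing regulator, had 43 reads in J82, 0 in T24 and 44 in SV-HUC-1. ITGB6, an integrin subunit of epithelia, had 62 reads in J82, 1 in T24 and 285 in SV-HUC-1, 56.0-fold higher in J82 than in T24 (9.69 to 2247). PPARG, a nuclear receptor of urothelial differentiation, had 101 reads in J82, 25 in T24 and 65 in SV-HUC-1, 3.65-fold higher in J82 than in T24 (2.34 to 5.90). Keratin 7 gene KRT7 had 17 reads in J82 and 3 in T24, and the vesicle motor gene MYO5B had 18 and 0. A further 12 genes of the group had circRNAs in the table but fewer than 10 reads in both lines, of which 5 were at 0 in J82 and 11 at 0 in T24. The cadherin gene CDH1 was among them with 8 reads in J82, 0 in T24 and 20 in SV-HUC-1, as was the adhesion molecule gene EPCAM with 8, 0 and 45. OCLN, of tight junctions, DSP, of desmosomes, and CDH3, ST14 and LLGL2 had 0 in both J82 and T24. Over the 8 genes used as epithelial markers, all were detected in J82 and 3 in T24, with 428 circular reads in J82, 29 in T24 and 953 in SV-HUC-1. T24 was thus the lowest in that sum. The markers leave out the genes at 0 in both lines and 3 that differed little. These were ERBB2 with 97 reads in J82, 109 in T24 and 120 in SV-HUC-1, SHANK2 with 40, 27 and 23, and GPRC5A with 6, 9 and 11. Over all 9 measured genes of the group the sums were 603 reads in J82, 165 in T24 and 1024 in SV-HUC-1, with most of the T24 reads from ERBB2. The place of J82 varied by gene, since KRT7 and PPARG had the most reads in J82, while GRHL2, ITGB6 and EPCAM had the most in SV-HUC-1. Linear transcripts of the markers were not measured.

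Mesenchymal and extracellular matrix genes differed in both directions. Of 9 measured, 3 were higher in J82 and 3 lower, with a median log2 difference of -0.51, or -0.75 with no filter. COL5A1, the smooth muscle kinase gene MYLK with 38 reads in J82, 0 in T24 and 2 in SV-HUC-1, and BNC2, a zinc finger gene of fibroblasts, with 11, 1 and 2, were higher. LTBP2, a microfibril protein gene, had 6 reads in J82 and 41 in T24, 7.56-fold lower in J82 (3.19 to 21.8). The epithelial gene repressor ZEB1 had 7 reads in J82, 16 in T24 and 2 in SV-HUC-1, with an interval that holds 1 (0.985 to 7.27-fold lower). AXL, with 115 reads in J82 and 148 in T24, and ROR1, with 14 and 26, were not called, with intervals wholly on the lower side. The ROR1 ratio was 2.06-fold lower in J82 (1.03 to 4.26). Its log2 difference after adding 1 read of T24, -0.98, fell just short of the 2-fold call. A further 6 genes of the group had circRNAs but fewer than 10 reads in both lines, of which 4 were at 0 in J82 and 1 at 0 in T24. The 6 mesenchymal markers summed to 75 reads in J82, 21 in T24 and 267 in SV-HUC-1. Of these, COL5A1 alone gave 51, 0 and 190. The markers leave out measured genes of the group, among them AXL, ROR1, LTBP2 and NID1, with more reads in T24, and MYLK, with more in J82. Over all 9 measured genes the sums were 265 reads in J82, 257 in T24 and 439 in SV-HUC-1, so J82 and T24 were nearly equal. Endothelial markers had 0 reads in every library, and of 4 blood markers only FLI1 was detected, with 11 reads in J82, 44 in T24 and 33 in SV-HUC-1. FLI1, an ETS transcription factor, was the only gene of the blood and endothelial group that was measured and was 4.43-fold lower in J82 (2.25 to 9.51).

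Among 20 cell polarity and junction genes, 7 were higher in J82 and 5 lower, with a median of 0.28. PTPRM and PTPRK led, and PARD3B had 73 reads in J82 and 14 in T24, 4.71-fold higher (2.64 to 9.04). Its relative PARD3 went the other way, with 60 reads in J82 and 179 in T24, 3.30-fold lower (2.45 to 4.50), as did the atypical cadherin gene FAT1 with 11 and 46, 4.63-fold lower (2.36 to 9.91). PARD3 and PARD3B encode related scaffolds of the same polarity complex, and their circRNAs were unequal in opposite directions. The nectin gene PVRL1 had 14 and 1 read, and the lower genes also included PRKCZ, the atypical kinase of that complex, with 10 reads in J82 and 29 in T24, and MAGI3 with 8 and 18. Of 27 integrin, focal adhesion and actin genes, 7 were higher and 3 lower (median 0.26). SPECC1, a coiled-coil protein that binds actin, had 239 reads in J82, 14 in T24 and 191 in SV-HUC-1, 15.4-fold higher in J82 than in T24 (9.01 to 28.6). TNS3, a tensin that links integrins to actin, had 157 reads in J82 and 11 in T24, 12.9-fold higher (7.01 to 26.4). The formin gene FMNL2 had 5 and 26, and the laminin chain gene LAMA5 had 30 and 75.

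Of 7 hedgehog and primary cilium genes, 1 was higher and 2 lower (median -0.92). GLIS3, a zinc finger factor related to the pathway's GLI proteins, had 390 reads in J82, 105 in T24 and 1 in SV-HUC-1, 3.36-fold higher in J82 than in T24 (2.70 to 4.20). SMO and EVC2, with 42 reads each in T24 and 0 in J82 over all their circRNAs, were at least 15.5-fold lower in J82. GLIS3 on one side and SMO with EVC2 on the other thus had opposite orders over the libraries.

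Growth factor receptors and ligands were higher or within 2-fold in the 16 genes measured, with 6 higher and none lower (median 0.43). GFRA1 had 103 reads in J82, 1 in T24 and 0 in SV-HUC-1 over all its circRNAs, 93.0-fold higher in J82 than in T24 (16.3 to 3710). FGFR2 had 17 reads in J82, 0 in T24 and 87 in SV-HUC-1, whereas FGFR1 had 38, 11 and 1, 3.12-fold higher in J82 than in T24 (1.56 to 6.77). These fibroblast growth factor receptor genes were both higher in J82 than in T24 and had opposite orders relative to SV-HUC-1. The insulin-like growth factor receptor gene IGF1R had 120 reads in J82, 38 in T24 and 189 in SV-HUC-1, 2.85-fold higher in J82 than in T24 (1.97 to 4.22).

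Downstream of receptors, 6 of 35 RAS, MAPK and PI3K signalling genes were higher in J82 and 2 lower (median 0.16). INPP4B led the higher ones. The lipid kinase gene PIK3C2B had 12 and 1 read in J82 and T24, its relative PIK3C2A had 3 and 10 with an interval that holds 1, and the kinase gene MAP4K3 had 19 and 3. SPRED1 was the other lower gene. Of 35 small GTPase regulators, 5 were higher and 6 lower (median 0.32). RHOBTB3 had 686 reads in J82 and 151 in T24 over its circRNAs, and ARHGAP26, a GTPase-activating protein that turns such switches off, had 110 and 24, 4.14-fold higher (2.64 to 6.74). DOCK4 led the lower genes, followed by ARHGAP29, another GTPase-activating protein, with 1 read in J82 and 20 in T24 (22.1-fold, 3.54 to 918), and by ABR with 19 and 73 (4.25-fold, 2.54 to 7.46). Regulators of both signs, activators and inactivators, thus stood on both sides.

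Of 28 WNT, NOTCH, Hippo and TGF-beta pathway genes, 4 were higher and 6 lower (median 0.24). The TGF-beta mediators SMAD2, with 141 reads in J82 and 34 in T24 (3.75-fold, 2.56 to 5.62), and SMAD4, with 24 and 3 (7.23-fold, 2.19 to 37.5), were both higher in J82. Both lie on chromosome 18. SMURF2, a ubiquitin ligase that targets the pathway's proteins, had 68 reads in J82 and 170 in T24, 2.77-fold lower (2.08 to 3.72). TNIK, a kinase that activates WNT target genes, had 48 and 3 reads, 14.5-fold higher (4.66 to 72.5). TNKS2, a tankyrase, had 2 and 23, and the Hippo pathway's WWTR1 had 1 and 11, both lower in J82. NF2, upstream of WWTR1 in that pathway, was lower as well.

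Cell cycle and DNA repair genes numbered 64, with 7 higher in J82 and 16 lower (median -0.26). Over the 96 circRNAs of this group in the comparison, 16 were higher and 18 lower with a median of -0.024, so by circRNA the directions were nearly even. RAD51B, a recombination factor, had 3 reads in J82 and 22 in T24, 8.12-fold lower (2.44 to 42.4). CHEK2, a checkpoint kinase, had 6 reads in J82, 37 in T24 and 25 in SV-HUC-1, 6.83-fold lower (2.86 to 19.8), and MSH6, of mismatch repair, had 2 and 11 in J82 and T24. The mitotic kinesin gene KIF11 had 3 reads in J82 and 13 in T24. The higher ones included NIPBL, the cohesin loader, with 30 reads in J82 and 7 in T24, and CDK8, of the Mediator complex, with 72 and 18. CDK8 and CDK14, at 85 and 26, are not drivers of a cell cycle step in the way the classical cyclin-dependent kinases are.

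Of 72 chromatin regulators, 14 were higher and 10 lower, with a median of -0.0030. JARID2, a partner of the Polycomb complex, had 48 reads in J82, 5 in T24 and 96 in SV-HUC-1, 8.67-fold higher in J82 than in T24 (3.47 to 27.9), and BAZ1B, of a chromatin remodeller, had 26 in J82 and 71 in T24, 3.02-fold lower (1.90 to 4.94). RNA binding, splicing and decay genes had 9 of 57 higher and 3 lower (median -0.069). CNOT2, a subunit of the deadenylase complex that shortens poly(A) tails, had 208 reads in J82, 18 in T24 and 26 in SV-HUC-1, 10.4-fold higher in J82 than in T24 (6.44 to 17.96), while the scaffold of the same complex, CNOT1, had 16 in J82 and 35 in T24. Subunits of 1 complex could thus be unequal in their circRNAs. Of 72 ubiquitin ligases and deubiquitinases, 11 were higher and 2 lower (median 0.012), with TRIM2 at 54 reads in J82 and 4 in T24 (12.2-fold, 4.50 to 46.4) and UBR1 at 27 and 55 (2.26-fold lower, 1.40 to 3.72). Of 64 membrane traffic genes, 14 were higher and 7 lower (median -0.036). SNX25, a sorting nexin, had 461 reads in J82, 81 in T24 and 33 in SV-HUC-1, 5.14-fold higher in J82 than in T24 (4.05 to 6.59), and RIMS2, the relative of RIMS1, had 0, 22 and 16.

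Transcription factor genes had 17 of 53 higher and 5 lower (median 0.39). CREB3L1, a membrane-bound factor, had 32 reads in J82 and 0 in both T24 and SV-HUC-1. SOX13 had 123 reads in J82 and 17 in T24, 6.54-fold higher (3.92 to 11.6). The ETS factor gene ELF1 had 26 and 1 read and CREB1 had 23 and 1. BACH1, a repressor of antioxidant genes, had 11 reads in J82 and 52 in T24, 5.23-fold lower (2.70 to 11.1), so factors stood on both sides. Of 28 solute carrier and ion transport genes, 10 were higher and 2 lower (median 0.26), among them the scramblase and channel gene ANO6 with 38 and 5 reads and, lower, the organic anion transporter gene SLCO4A1 with 10 and 51 (5.65-fold, 2.83 to 12.5). Of 11 neuronal genes, 6 were higher and 4 lower (median 1.53, which was 0.24 with a filter of 20 reads and 0.62 with none). TENM3, a teneurin, had 44 reads in J82 and 3 in T24, 13.2-fold higher (4.25 to 66.7), and ANKS1B had 11 and 0, against RIMS1 and RIMS2 on the lower side. Neuronal genes as a class were thus not a feature of T24 alone.

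Of 24 genes often mutated in bladder cancer, 4 were higher and 6 lower (median 0.18). Besides PPARG, RXRA, which encodes the partner receptor of PPARG, had 19 reads in J82, 4 in T24 and 18 in SV-HUC-1, 4.29-fold higher in J82 than in T24 (1.43 to 17.3). TERT, the telomerase catalytic subunit, had 19 reads in J82, 56 in T24 and 67 in SV-HUC-1, 3.26-fold lower in J82 than in T24 (1.91 to 5.82). TERT circRNAs were therefore present in all 3 lines. Mutations were not examined.

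**Figure D3:**
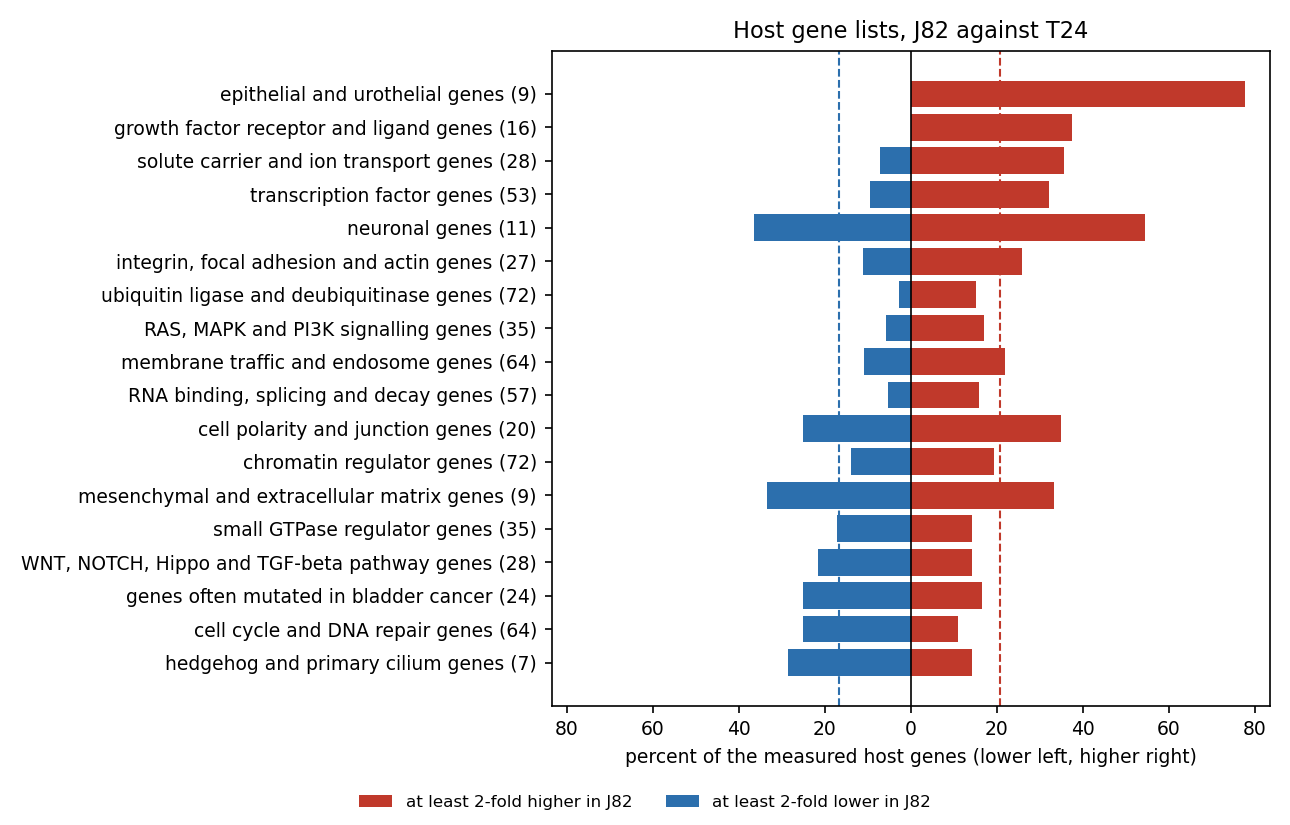
Percent of the measured host genes of each functional group that were at least 2-fold higher in J82 than in T24 (red, to the right) or lower (blue, to the left), with the number measured in brackets, for groups with at least 5 measured. Dashed lines mark the 20.7% and 16.6% over all 2513 host genes; the epithelial and urothelial genes reach 77.8% higher, and the cell cycle and DNA repair genes have 10.9% higher and 25% lower.

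In some host genes the lines differed in which circle was found. In 21 of the 814 host genes with at least 2 circRNAs (2.58%), a circRNA was called higher in J82 and another lower, each with its counting interval on its own side of 1. HACE1, a ubiquitin ligase of Rac, gave hsa_circ_0005932 in 12 of its 46 reads in J82 (26.1%, exact interval 14.3 to 41.1) and in 0 of its 62 in T24 (0 to 5.78%). Its hsa_circ_0006993 took 4 of 46 in J82 (8.70%, 2.42 to 20.8) and 24 of 62 in T24 (38.7%, 26.6 to 51.9). An abundant HACE1 circle of T24 was therefore a minor one in J82. SEPT10, a septin of the cytoskeleton, gave hsa_circ_0007654 in 13 of 57 reads in J82 (22.8%, 12.7 to 35.8) and in 2 of 104 in T24 (1.92%, 0.234 to 6.77), while hsa_circ_0008953 took 15 of 57 in J82 (26.3%) and 48 of 104 in T24 (46.2%, 36.3 to 56.2). HERC4, another ubiquitin ligase, gave hsa_circ_0093898 in 15 of 73 reads in J82 (20.5%, 11.98 to 31.6) and in 3 of 113 in T24 (2.65%, 0.551 to 7.56), and hsa_circ_0005190 in 2 of 73 and 11 of 113 (9.73%). ATP9B, a lipid flippase, gave hsa_circ_0048000 in 12 of 58 reads in J82 (20.7%) and in 2 of 53 in T24 (3.77%), and hsa_circ_0003275 in 3 of 58 and 11 of 53 (20.8%). For SEPT10, HERC4 and ATP9B too, each line had the larger share of a different ring. All these pairs were chosen for their opposite differences, so the opposite shares restate that choice on the same reads and are no further evidence. ADAMTS6, a secreted protease, gave hsa_circ_0072672 in 10 of 106 reads in J82 (9.43%) and in 1 of 176 in T24 (0.568%), and a ring without a circBase ID (chromosome 5, 64556426 to 64569270) in 1 of 106 and 11 of 176 (6.25%). TYW1B showed the same kind of split, but it has a near-identical relative, TYW1, and the assignment of its reads is uncertain.

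**Figure D4:**
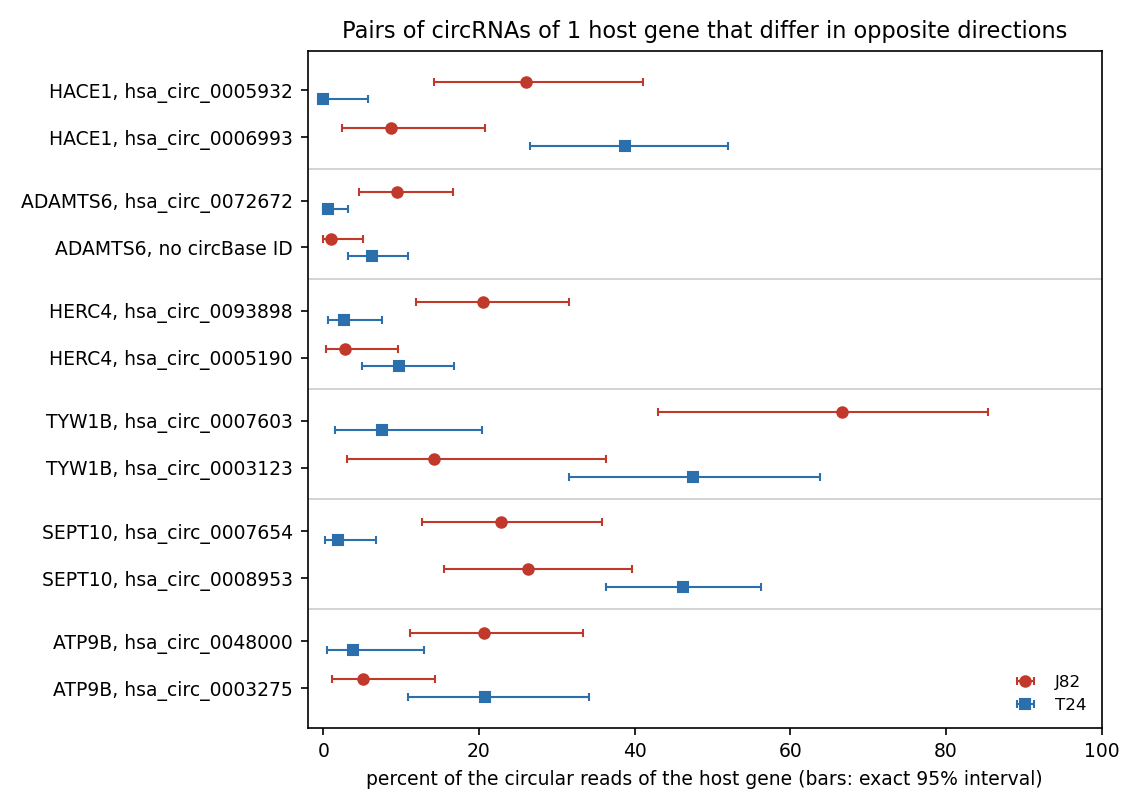
Share of its host gene's circular reads, in percent, taken by each of the opposing circRNAs of 6 host genes in J82 (red circles) and T24 (blue squares), with exact 95% intervals that cover counting error only. In each pair, chosen for opposite differences between the lines, the upper circRNA has the larger share in J82 and the lower one in T24. For HACE1 these are 26.1% and 0% above and 8.70% and 38.7% below.

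Choice between partner splice sites can be read more directly where circles share exactly 1 end. Of 1148 such pairs, 14 (1.22%) differed in opposite directions with both intervals off 1. The examples were picked from these 14 for the size of that difference, so their shares describe the choice and do not test it. AP2A2, a subunit of the endocytic clathrin adaptor, makes circles that start at 992502 on chromosome 11. The ring hsa_circ_0020748 took 31 of 52 AP2A2 reads in J82 (59.6%, 45.1 to 73.0) and 9 of 41 in T24 (22.0%, 10.6 to 37.6), while a ring without a circBase ID that ends at 1000598 took 3 of 52 (5.77%) and 13 of 41 (31.7%). On the plus strand the shared start is the acceptor, so the AP2A2 acceptor was the same and the shares of the donors differed between the lines. STAU2, which transports RNA along dendrites, gave hsa_circ_0084783 in 3 of 89 reads in J82 (3.37%) and in 13 of 61 in T24 (21.3%). CTBP1, a transcriptional corepressor, gave hsa_circ_0068837 in 2 of 260 reads in J82 (0.769%, 0.0933 to 2.75) and in 13 of 187 in T24 (6.95%, 3.75 to 11.6), while its main ring hsa_circ_0001386 took 73.8% of the J82 reads and 67.9% of those in T24. The exact intervals of the main CTBP1 ring's share overlap between J82 (68.1 to 79.1) and T24 (60.7 to 74.5), whereas those of hsa_circ_0068837 do not.

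The calls were not spread evenly over the chromosomes. On chromosome 18, 38 of 88 circRNAs (43.2%) were higher in J82 and 5 (5.68%) lower, and by host gene 15 of 55 were higher and 4 lower. Leaving out PTPRM, 27 of 77 (35.1%) were higher, so that gene did not carry the figure alone. Chromosome 13 had 29 of 76 (38.2%) higher and 6 (7.89%) lower, with a median log2 difference of 0.61. Chromosome 22 was the reverse, with 6 of 70 (8.57%) higher and 33 (47.1%) lower and a median of -0.90, and by host gene 2 of 43 were higher and 20 lower. Chromosome 11 also leaned to T24, with 27 of 177 (15.3%) higher and 53 (29.9%) lower. Chromosome 8 had 50 of 148 (33.8%) higher and 23 (15.5%) lower, and chromosome 3 had 85 of 257 (33.1%) higher and 36 (14.0%) lower. Of chromosome 4, 48 of 154 (31.2%) were higher. Without INPP4B this was 37 of 143 (25.9%), near the 25.1% over all circRNAs. By host gene, 19 of 87 on chromosome 4 were higher and 13 lower, against 20.7% and 16.6% of all host genes. The number of copies of each chromosome in these lines was not measured, and its part in these differences was not tested.

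**Figure D5:**
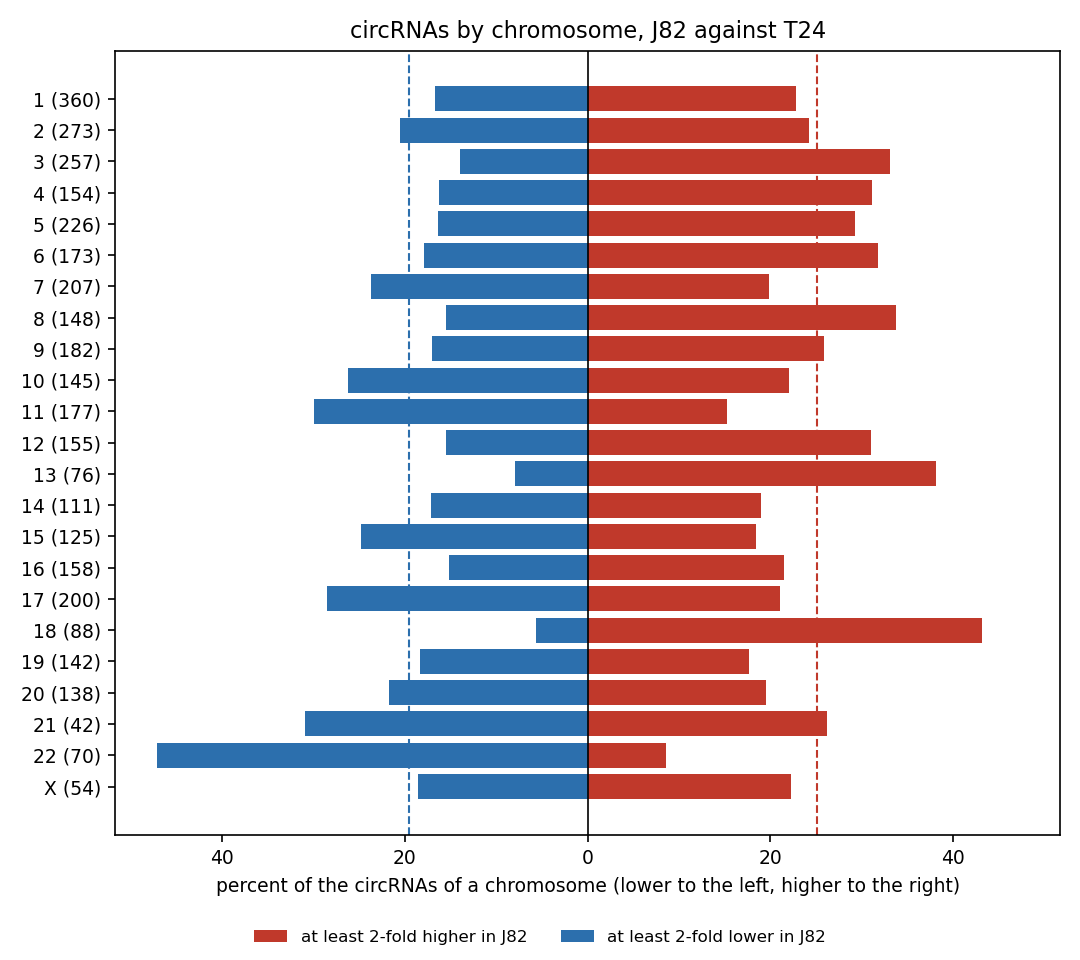
Percent of the circRNAs of each chromosome that were higher in J82 than in T24 by 2-fold or more (red, to the right) or lower (blue, to the left), with the number of circRNAs in brackets and dashed lines at the 25.1% and 19.5% over all 3679 circRNAs. Chromosomes 18 and 13 have the highest shares of higher circRNAs, and chromosome 22 has the highest share of lower ones at 47.1%.

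Neighbouring circRNAs could share a direction over long stretches. The longest run that was lower in J82 lay on chromosome 22 from 25771779 to 30038274 and held 11 circRNAs of LRP5L, HPS4, TTC28, CHEK2 and NF2 and of an unannotated host. Their log2 differences ran from -2.77 to -1.22, with a median of -2.02, and together they had 78 reads in J82, 309 in T24 and 118 in SV-HUC-1. CHEK2 and NF2, named above for DNA repair and for the Hippo pathway, are thus neighbours in this stretch. The longest higher run lay on chromosome 4 from 140058783 to 146770713 and held 14 circRNAs, 11 of them of INPP4B and the others of ELF2, SMARCA5 and ZNF827. It had 378 reads in J82, 41 in T24 and 82 in SV-HUC-1, and a median log2 difference of 3.51.

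Circles that span long stretches of the genome were more often higher in J82. The median span, from 1 end of the back-splice to the other, was 9153 bp for higher circRNAs, 4494 bp for lower ones and 5767 bp for those within 2-fold. Of the 140 that span 50000 bp or more, 70 (50%) were higher and 17 (12.1%) lower, with a median log2 difference of 1.001. With 1 value per host gene this was 47 (48.0%) and 12 (12.2%) of 98, and without PTPRM, INPP4B, PTPRK and SEMA5A it was 57 (44.9%) and 17 (13.4%) of 127. Below 500 bp, 19.8% were higher and 20.2% lower. The digestion by RNase R and the sizes of the rings in each library were not measured, and their part in this was not tested. Of the 149 circRNAs without a circBase ID, 58 were higher and 54 lower. Together 75.2% of them passed 2-fold, against 43.4% of the 3530 with an ID. A circRNA of either class entered only by reaching the read limit in J82 or T24. The part of that limit in the gap between the classes was not tested.

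SV-HUC-1 did not side with either line throughout. Of the 925 circRNAs higher in J82, the SV-HUC-1 level was nearer to J82 for 432 (46.7%) and nearer to T24 for 493 (53.3%). Of the 718 lower in J82, it was nearer to J82 for 448 (62.4%) and nearer to T24 for 270 (37.6%). Of the 147 circRNAs at 0 in T24, 38 had at least 10 reads in SV-HUC-1, as did 5 of the 55 at 0 in J82. RIMS1 and WSCD1 gave examples of circRNAs at or near 0 in J82 whose T24 signal had little counterpart in SV-HUC-1, and GRHL2 gave some that T24 lacked while SV-HUC-1 had them.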

How the data were processed

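The study made 1 library per line from 2 μg of total RNA, per the labels' protocols, with removal of ribosomal RNA, digestion with RNase R and directional cDNA synthesis. The authors deposited 1 table of circRNAs with CPM values that its name calls TMM normalized. Per the submitters' processing notes, the reads were processed on hg19, and the tools named are edgeR, STAR, RSEM 1.2.15 and Bowtie2 2.1.0, whose roles are not stated. The back-splice caller and whether a start is counted from 0 or 1 are not given in the sources used here.

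Every CPM value was a whole multiple of its column's smallest value above 0 (tolerance 0.01 reads), so 100% came out as whole reads. Every value column belongs to a line by its name. The table lists circRNAs from 5 reads upward in any of the 3 libraries. The log2 difference is that of log2(CPM + 0.0234), J82 minus T24, with 1 read of T24 as the pseudocount, so it understates differences at few reads. Ratios are of CPM, with exact 95% Clopper-Pearson intervals on the reads. A library at 0 was set at a floor of 3 reads, written "at least", which leaves out the error of the other library. Reads carry no molecular identifiers, so intervals and floors cover counting error only. With 1 library per line no p-value is given for a single difference, and an exact binomial test of the reads, which compares the libraries, gives counts of calls only.

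The circRNAs and all lists were chosen with earlier results of these data known, and the patterns of epithelial genes, RIMS1, CDR1as, SMO and EVC2 were among those results. Named were the 12 highest and 12 lowest circRNAs, the 5 most abundant in each line, the 10 highest and 10 lowest host genes with at least 2 circRNAs in the comparison, the 6 leading host genes with opposing circRNAs, the 5 leading pairs sharing 1 end, up to 4 host genes a side of each of the 19 lists, 23 circBase IDs, RIMS1 and CCAR1, and the longest run each way. A Y-linked host gene was left out of the named ones. From each list the text takes examples of those named. One named host gene is not reported here. EXOC6B, MYO5B, FNDC3B as a host gene and the listed genes under 10 reads were named after their values were seen. The counts of long-spanning circRNAs per host gene or without 4 genes, of chromosomes 18 and 4 without their leading gene, and of host genes at 0 with at least 20 reads in the other line were added after the data were seen. Python 3.11.15, numpy 2.4.6, pandas 2.3.3 and scipy 1.17.1 were used, and the scripts were tested on simulated data.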

Additional observations from a re-analysis of the deposited data

How the results depend on the processing

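Each line has 1 library, so no replicate could be left out. No paired analysis was possible because each line has 1 library and the labels give no replicate numbers. With scaling to total circRNA reads in place of the deposited scaling, the scale of J82 relative to T24 changed by -0.068 on the log2 scale. Log2 differences moved by up to about that amount, less for those near 0 reads in J82, because of the pseudocount. The medians became 0.067 for circRNAs and -0.057 for host genes. With no filter, 2729 circRNAs were higher and 2478 lower, and 952 and 875 host genes. With a filter of 20 reads there were 376 and 261 circRNAs and 315 and 238 host genes. With a 4-fold threshold there were 370 and 246 circRNAs and 196 and 112 host genes. The counts by that scaling (861 higher and 768 lower circRNAs), by median-of-ratios scaling (933 and 716), by pseudocounts of 0.25 reads (973 and 764) and 4 reads (719 and 548), by an exact binomial test that compares the libraries (696 and 550) and by the counting interval alone (819 and 684) were within 1.5 times those reported. With 4 reads as pseudocount, log2 differences of features at 0 reads in a line shrank most, as for INPP4B (5.91) and WSCD1 (-5.85). No named value or group median that was past 2-fold changed its direction, but the neuronal median fell below 2-fold with a filter of 20 reads (0.24) and with none (0.62), and the epithelial median ran from 2.34 to 5.49. The medians of the WNT, NOTCH, Hippo and TGF-beta group (-0.11 to 0.25), the polarity group (-0.14 to 0.33), the membrane traffic group (-0.10 to 0.11), the ubiquitin group (-0.056 to 0.16) and the chromatin group (-0.071 to 0.010) took both signs over these settings. Depth limits the circRNAs with 10 to 19 reads, most of whose intervals hold 1.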

Other observations

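More host genes had circular reads in J82 and none in T24 than the reverse. Of 2513 host genes, 71 (2.83%) were at 0 in T24 and 21 (0.836%) at 0 in J82, and with at least 20 reads in the other line these were 27 and 7. J82 was the deeper library, with 126041 circRNA reads against 108574 in T24, and its part in this was not tested. Beyond the genes described above, chosen here after their values were seen, GRIP1, a scaffold of glutamate receptors, had 34 reads in J82, 0 in T24 and 2 in SV-HUC-1. FGD3, an exchange factor for CDC42, had 33 reads in J82, 0 in T24 and 8 in SV-HUC-1. MCTP2, a calcium-binding membrane protein, had 31 reads in J82, 0 in T24 and 49 in SV-HUC-1, and so was an example in which T24 alone lacked the gene's circRNAs.

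PCSK5, a proprotein convertase, had 27 reads in J82, 0 in T24 and 2 in SV-HUC-1, spread over 4 circRNAs of which none reached 10 reads. The inflammasome gene NLRP2 had 25 reads in J82, the sodium-chloride cotransporter gene SLC12A3 had 23, and BMPER, a modulator of bone morphogenetic protein signalling, had 24, with 0 in both T24 and SV-HUC-1 for each. These 3 genes thus gave circular reads in J82 alone.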
